A study of Sus scrofa with 20 samples.

Results

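Sole skin was set against upper foot skin of the same pig in 10 of the 20 libraries of a pig skin RNA-seq series, 5 libraries a side, each side with 1 library from each of 5 wild-type (WT) female Yorkshire pigs aged 4 to 8 months. In the series, 4 mm punch biopsies were taken from volar foot, dorsal foot, flank and snout, stored in RNAlater, and made into stranded mRNA libraries. No treatment was given, and each pig is 1 animal with 1 biopsy a site. Library numbers in the labels fall into 2 ranges, here called the first set, with the 4-, 7- and 8-month pigs, and the second set, with the 5- and 6-month pigs.

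The sole side held the 3 first-set libraries labelled volar and the 2 second-set libraries labelled flank. The upper foot side held the 3 first-set libraries labelled dorsal and the 2 second-set libraries labelled snout. The second-set libraries were chosen by their expression over all genes, against their labels. Over the 2000 most variable genes, centred within each set, the flank-labelled libraries of the 5- and 6-month pigs correlated with the first-set volar mean at r = 0.872 and 0.87, against -0.658 and -0.668 with the mean of their own label. The snout-labelled libraries of these pigs correlated with the first-set dorsal mean at r = 0.822 and 0.86, with flank next at 0.684 and 0.638, and with the mean of their own label at -0.49 and -0.504. Because these values chose the 4 libraries, the 5 against 5 comparison is given as levels with no test. Tests were run on the first set alone, volar minus dorsal, where the labels and not the expression made the groups. Values are normalised CPM (counts scaled to library size multiplied by a TMM normalisation factor). These factors ran from 0.57 to 0.812 in sole libraries and from 1.17 to 1.29 in upper foot libraries. A CPM value is therefore not a share of a library's counts. Values are listed for the pigs aged 4, 7 and 8 months and then, for the regrouped libraries, 5 and 6 months. The value after ± is the size of a log2 fold change over the square root of the F statistic of its test. It is an approximate standard error and not a spread across pigs.

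The sole carries weight on a thick, hairless, ridged epidermis, whose keratinocytes flatten into a deep cornified layer, whereas the upper foot of the pig bears hair follicles with their sebaceous and apocrine glands. In the limb bud, the transcription factor EN1 marks the ventral side, where it represses WNT7A, and WNT7A induces LMX1B, which specifies the dorsal side. Keratins form the filaments of these cells, with KRT1 and KRT10 in the differentiating layers of epidermis and a separate set of keratins in the hair shaft and its inner root sheath.

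Totals of the 10 libraries ran from 37078252 to 64073996 estimated counts. KRT1 alone took 14.6% to 26.7% of all counts in sole libraries and 1.09% to 1.88% in upper foot libraries, and the 20 most abundant genes took 34.9% to 48.3% in sole libraries and 17.1% to 21.0% in upper foot libraries. The scaling between libraries therefore bears on every value below. In the first set, 15302 genes were tested with edgeR's quasi-likelihood test at a Benjamini-Hochberg adjusted p under 0.05, of which 2142 (14.0%) rose and 1553 (10.1%) fell in volar relative to dorsal libraries. Their split moved to 1593 higher and 1981 lower with upper-quartile scaling, where the median of all genes was at -0.12 on the log2 scale in place of -0.01, and to 571 higher and 8155 lower with library totals alone, where it was at -0.67. With the 7-month pig's dorsal library left out, 1375 genes rose and 985 fell, and without its volar library 1722 rose and 1007 fell. Counts within lists of genes are to be read against the 14.0% and 10.1% over all genes. The HOX 9 to 13, collagen, proteoglycan, smooth muscle, skeletal muscle, endothelial, cell cycle and stress response lists lay near or below both shares. The hemidesmosome and basement membrane list, with 4 of 23 higher and 2 lower, lay near both. The members named in these lists are therefore single genes, and the count is no result about the list. In these bulk biopsies, fewer cells of a type and less RNA per cell cannot be told apart.

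The given markers set the sides apart in all 10 libraries. EN1 (ENSSSCG00000015715) had 14.8, 11.6, 9.16, 19.9 and 14.7 CPM in sole libraries, against 1.05, 0.880, 0.728, 1.50 and 1.09 CPM in upper foot libraries. Each sole library lay above each upper foot library, and the regrouped libraries lay within or above the range of the first set (log2 fold change 3.73 ± 0.57, adjusted p = 0.00107 in the first set). LMX1B (ENSSSCG00000035968), the dorsal determinant, had 1.50, 1.67, 1.09, 2.37 and 2.74 CPM in sole libraries, against 4.38, 4.11, 3.84, 4.60 and 5.60 CPM in upper foot libraries. It was lower in every sole library, by a smaller margin than EN1 was higher (log2 fold change -1.54 ± 0.28, adjusted p = 0.00294). WNT7A, the signal between them in the limb bud, had 1.19, 1.39, 2.53, 0.802 and 1.55 CPM in sole libraries, against 0.901, 0.893, 0.485, 0.462 and 0.380 CPM in upper foot libraries, and did not pass the test (adjusted p = 0.0523). KRT1 (ENSSSCG00000000251), the keratin of the spinous and granular layers, had 204856, 219958, 182079, 384330.0 and 462715 CPM in sole libraries, against 12870.3, 12344, 15542, 9367 and 14048 CPM in upper foot libraries. Its sole and upper foot values were over an order of magnitude apart, and the flank-labelled pair lay above the volar libraries (log2 fold change 3.89 ± 0.26, adjusted p = 2.31e-05). AQP5 (ENSSSCG00000000211), a water channel known from sweat glands and, in human palms and soles, from keratinocytes, had 2133, 1438, 498, 5371 and 4130.4 CPM in sole libraries, against 13.2, 8.84, 18.3, 8.12 and 16.2 CPM in upper foot libraries. The 8-month pig had the lowest sole value and it was still far above every upper foot value (log2 fold change 6.66 ± 0.83, adjusted p = 0.000398). KRT71 (ENSSSCG00000000247), which builds the inner sheath around the hair root, had 0.0254, 0.154, 0.0778, 21.0 and 0.0913 CPM in sole libraries, against 2047, 2005, 4946, 4472 and 6007 CPM in upper foot libraries. It was almost unread in 4 sole libraries, while the flank-labelled library of the 5-month pig stood well above these and well below any upper foot library (log2 fold change -15.07 ± 1.35, adjusted p = 7.10e-05).

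**Figure D1:**
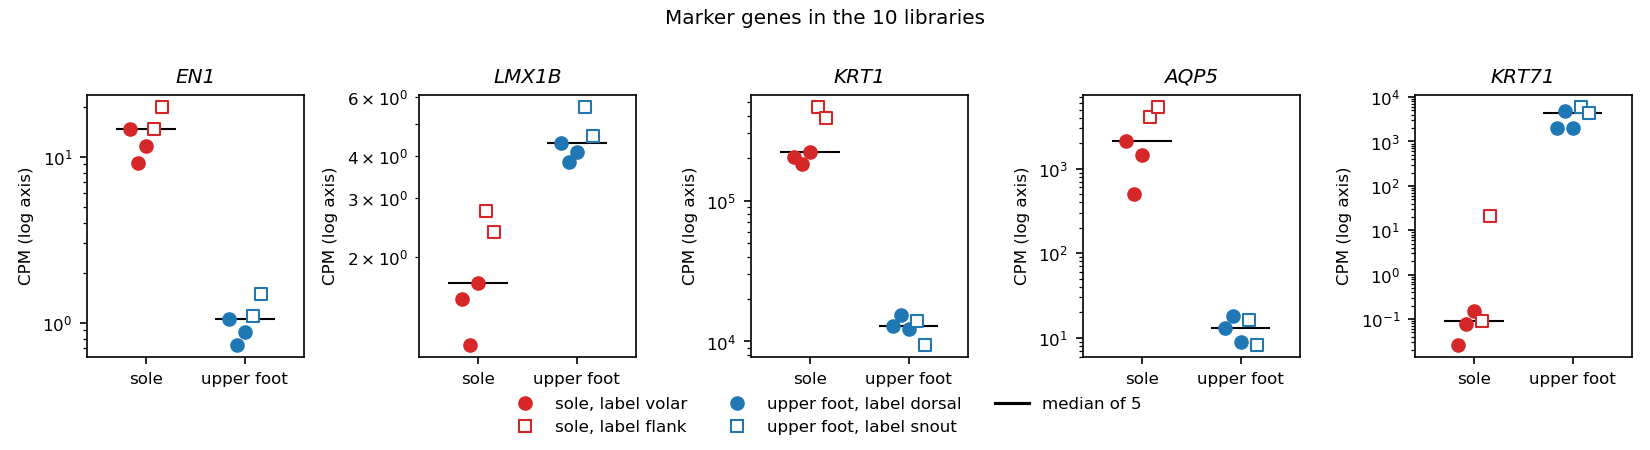
Levels of the 5 marker genes in CPM on log axes, sole libraries to the left of upper foot libraries, with circles for the first set, open squares for the regrouped second-set libraries and a line at the median of 5. Sole and upper foot libraries did not overlap for any of the 5, and the 1 sole library that stands apart is that of the 5-month pig at 21.0 CPM of KRT71.

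The genes with the largest higher values in sole libraries, taken by the smaller of their mean differences in the 2 sets, were S100A8, KRT3, S100A12, A2ML1, KRT78, AQP5, ARG1, THBS4, ZBED2 and LYPD2. They were the first of 1774 genes that passed in the first set and were higher in the sole library of each of the 5 pigs. Only genes with a symbol and a mean of at least 5 CPM on the higher side were counted. S100A8 (ENSSSCG00000006590), a calcium-binding alarmin subunit of keratinocytes and neutrophils, had 3291, 3741, 2399.6, 5264 and 9375 CPM in sole libraries, against 2.03, 10.0, 3.60, 1.94 and 5.22 CPM in upper foot libraries. The related S100A12 (ENSSSCG00000032857) had 4395, 5250.3, 3919, 8939 and 16783 CPM in sole libraries, against 6.72, 20.7, 11.7, 9.68 and 15.3 CPM in upper foot libraries. Both were far higher in each sole library (S100A8 log2 fold change 9.23 ± 1.01, adjusted p = 0.000199, S100A12 log2 fold change 8.44 ± 0.79, adjusted p = 7.71e-05). KRT3 (ENSSSCG00000023254), known in humans as a keratin of corneal epithelium, had 4639, 10429, 22061, 1473 and 8417 CPM in sole libraries, against 2.92, 4.47, 42.9, 15.1 and 5.45 CPM in upper foot libraries. It varied most among these genes: the 8-month pig was highest on both sides and the 5-month pig lowest on the sole (log2 fold change 9.53 ± 1.30, adjusted p = 0.000654). KRT78 (ENSSSCG00000036791), another type II keratin of differentiating epithelium, had 2036, 2087, 1734, 5834 and 7207 CPM in sole libraries, against 8.17, 5.42, 18.1, 7.80 and 15.2 CPM in upper foot libraries. The flank-labelled pair was above the 3 volar libraries, and the sides were far apart (log2 fold change 7.53 ± 0.59, adjusted p = 2.70e-05). A2ML1 (ENSSSCG00000000664), a protease inhibitor of the granular layer, had 2223, 767, 656, 3241 and 1378 CPM in sole libraries, against 3.12, 1.93, 4.69, 2.48 and 3.37 CPM in upper foot libraries. ZBED2 (ENSSSCG00000011936), a zinc finger transcription factor of keratinocytes, had 99.3, 108, 118, 118 and 90.6 CPM in sole libraries, against 1.45, 1.81, 2.93, 0.908 and 2.32 CPM in upper foot libraries. Of these, ZBED2 had the most even sole values (log2 fold change 5.72 ± 0.43, adjusted p = 2.31e-05). A2ML1 also stood apart in each pig (log2 fold change 8.55 ± 0.65, adjusted p = 2.48e-05).

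ARG1 (ENSSSCG00000004195), the arginase of the urea cycle, had 74.1, 69.9, 91.2, 247 and 58.5 CPM in sole libraries, against 0.535, 2.26, 0.748, 0.430 and 0.804 CPM in upper foot libraries. The 5-month pig was highest on the sole and lowest on the upper foot (log2 fold change 6.03 ± 0.63, adjusted p = 0.000136). LYPD2 (ENSSSCG00000036119), a small protein of the Ly6 family, had 363, 392, 317, 806 and 828 CPM in sole libraries, against 9.26, 5.69, 12.4, 9.17 and 11.7 CPM in upper foot libraries. Its sides were well apart in every pig (log2 fold change 5.29 ± 0.38, adjusted p = 2.31e-05). THBS4 (ENSSSCG00000014117), a matrix glycoprotein of tendon and of the dermis, had 2565, 1016, 1402, 1541 and 717 CPM in sole libraries, against 65.7, 20.1, 31.7, 15.3 and 35.4 CPM in upper foot libraries. It was the 1 gene among the 10 that is made mainly by connective tissue and not by epithelium (log2 fold change 5.41 ± 0.57, adjusted p = 0.000148).

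The 10 genes with the largest lower values in sole libraries were KRT71, KRTAP11-1, KRT85, KRT74, VSIG8, KRT25, KRT35, S100A3, CPHL1 and KRT27, the first of 911 chosen in the same way. Most are keratins or keratin partners of the hair. KRT85 (ENSSSCG00000000240), a keratin of the hair shaft matrix and cortex, had 0.0254, 0.283, 0, 0 and 0 CPM in sole libraries, against 283, 351, 798, 633 and 516 CPM in upper foot libraries. KRTAP11-1 (ENSSSCG00000038131), a keratin-associated protein that cross-links the shaft, had 0.0254, 0.180, 0, 0.174 and 0.0913 CPM in sole libraries, against 155, 427, 1226, 989 and 837 CPM in upper foot libraries. Sole libraries held only a handful of reads of either gene, 12 counts of KRT85 and 8 of KRTAP11-1 over the 3 volar libraries (KRT85 log2 fold change -12.27 ± 1.44, adjusted p = 0.000295, KRTAP11-1 log2 fold change -13.18 ± 1.61, adjusted p = 0.000347). KRT25 (ENSSSCG00000017464), a sheath keratin like KRT71, had 7.91, 5.56, 1.21, 7.84 and 10.5 CPM in sole libraries, against 1996, 2287, 5396, 3775 and 4530.5 CPM in upper foot libraries. It was read in every sole library and was still far lower there (log2 fold change -9.37 ± 1.31, adjusted p = 0.000754). KRT27 (ENSSSCG00000017462), of the same sheath, had 3.35, 2.42, 1.03, 2.51 and 16.4 CPM in sole libraries, against 692, 787, 1953, 1482 and 2005 CPM in upper foot libraries. KRT74 (ENSSSCG00000028334), also of the sheath, had 0.380, 0.540, 0.447, 0.941 and 1.00 CPM in sole libraries, against 488, 603, 1236, 934 and 1071 CPM in upper foot libraries. Both kept a clear gap between the sides (KRT27 log2 fold change -8.99 ± 1.08, adjusted p = 0.000333, KRT74 log2 fold change -10.73 ± 1.31, adjusted p = 0.000341).

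S100A3 (ENSSSCG00000006579), a calcium-binding protein of the hair cuticle, had 0.583, 0.309, 0.486, 0.523 and 0.228 CPM in sole libraries, against 213, 143, 517, 469 and 389.6 CPM in upper foot libraries, and its adjusted p was 0.00146 in edgeR and 0.0749 with limma-voom. VSIG8, a membrane protein known from the hair shaft, ranged over 0.0254 to 0.139 CPM in sole libraries and 127 to 467 CPM in upper foot libraries (adjusted p = 0.000158). KRT35, a keratin of the shaft, ranged over 0 to 0.0772 CPM in sole libraries and 103 to 245 CPM in upper foot libraries (adjusted p = 0.000197). Upper foot libraries exceeded sole libraries by a wide margin for both. CPHL1 had 0, 0, 0.0389, 0 and 0 CPM in sole libraries, against 753, 125, 1049, 20.1 and 747 CPM in upper foot libraries. Only 2 counts of CPHL1 were read over the 3 volar libraries, its upper foot level spread widely, and its adjusted p was 0.000681 in edgeR and 0.129 with limma-voom.

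**Figure D2:**
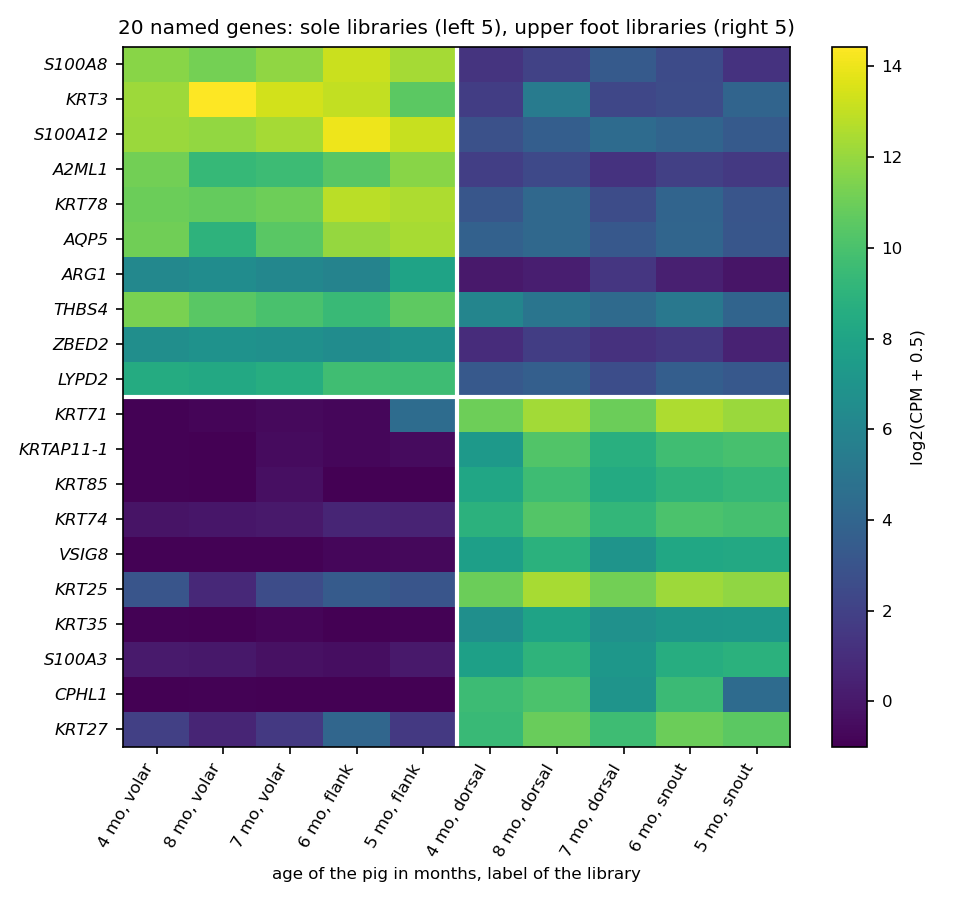
Colour gives log2(CPM + 0.5) for the 10 genes with the largest higher (upper block) and the 10 with the largest lower (lower block) values in sole libraries, one column a library, the 5 sole libraries on the left and the 5 upper foot libraries on the right. The KRT71 cell of the 5-month flank-labelled library and the CPHL1 cell of the 5-month snout-labelled library differ from their neighbours.

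Lists of epidermal differentiation genes had more members higher than lower on the sole. Among the keratins of differentiating epidermis, 9 were tested, of which 4 rose (KRT1, KRT10, KRT78, KRT3) and 3 fell (KRT2, KRT77, KRT23), with a median log2 fold change of 1.61 beside -0.01 over all genes tested. KRT10, the partner of KRT1, had 55089.7, 52179, 57769.9, 68216 and 102632 CPM in sole libraries, against 3867, 3044, 5922, 2290.4 and 4679 CPM in upper foot libraries. The gap in KRT10 was of the same order as in KRT1 (log2 fold change 3.68 ± 0.28, adjusted p = 2.31e-05). KRT77, a keratin known in human skin from sweat ducts, was the opposite, with 1.01, 5.22, 13.2, 3.38 and 11.2 CPM in sole libraries, against 58.0, 67.8, 71.0, 102 and 73.7 CPM in upper foot libraries (log2 fold change -3.33 ± 0.71, adjusted p = 0.00693). KRT80 and KRT24, which did not pass, spanned 78.7 to 365 CPM in sole libraries and 92.7 to 136 CPM in upper foot libraries for KRT80 and 0.136 to 1.05 CPM in sole libraries and 0.0447 to 0.271 CPM in upper foot libraries for KRT24. In a list named for basal and wound keratins, 4 of 12 members were tested and 3 fell: KRT15, KRT7 and KRT18. Of these 3, only KRT15 is a keratin of basal cells, so the count is no result about basal or wound keratins. KRT15, a keratin of basal cells and of the follicle bulge, had 3.65, 5.61, 14.1, 0.418 and 0.457 CPM in sole libraries, against 301, 356, 315, 240.3 and 223 CPM in upper foot libraries. It was lowest in the flank-labelled pair, and no sole library came near the upper foot level (log2 fold change -5.38 ± 0.50, adjusted p = 7.45e-05). KRT5, KRT14, KRT6, KRT16 and KRT9, which would complete these lists, were not matched by symbol and are not analysed here.

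Cornified envelope genes encode the proteins that are cross-linked beneath the membrane of dying keratinocytes and the enzymes that link them. Of 13 genes tested, 11 rose, with a median log2 fold change of 1.57 in the first set and a median difference of 2.89 on the log2(CPM + 0.5) scale in the regrouped pigs. CNFN, cornifelin, had 191, 189, 186, 572 and 729 CPM in sole libraries, against 13.6, 7.05, 15.6, 8.03 and 13.4 CPM in upper foot libraries (log2 fold change 3.97 ± 0.42, adjusted p = 0.000139). CASP14, the caspase of cornification, had 164, 648, 345, 622 and 995 CPM in sole libraries, against 35.8, 18.4, 35.8, 18.5 and 26.4 CPM in upper foot libraries (log2 fold change 3.68 ± 0.57, adjusted p = 0.00116). Both were higher in each sole library, and CNFN was highest in the flank-labelled pair. TGM5, a cross-linking transglutaminase, rose by 2.81 (adjusted p = 0.000232), and the secreted proteins SBSN and DMKN by 1.36 and 1.57 (adjusted p = 0.00119 and 0.00141). EVPL and KRTDAP did not pass. EVPL, envoplakin, ranged over 91.7 to 133 CPM in sole libraries and 78.1 to 118 CPM in upper foot libraries, and KRTDAP, a secreted marker of differentiation, over 1051 to 1733 CPM in sole libraries and 452 to 911 CPM in upper foot libraries.

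Desmosomes rivet keratinocytes together, and corneodesmosomes hold the cornified layer. Here 9 of 14 genes rose and 1, DSG4, fell, with a median of 1.37. JUP (plakoglobin), DSP (desmoplakin), PERP, PKP3 (plakophilin 3) and CDSN (corneodesmosin) had log2 fold changes of 1.74, 1.52, 1.55, 1.42 and 1.93, with adjusted p from 0.000242 to 0.000374. DSP had 23313, 20602, 20593, 27233 and 24797 CPM in sole libraries, against 7868, 7027, 7527, 5318 and 5737 CPM in upper foot libraries. CDSN, a protein of corneodesmosomes, had 2628, 2387, 2104, 7424 and 9379 CPM in sole libraries, against 664, 449, 758, 641 and 769.8 CPM in upper foot libraries. Desmoplakin was about evenly higher in the 3 volar libraries, and CDSN was higher still in the flank-labelled pair. DSG4, the desmoglein of the hair shaft, had 1.37, 1.44, 0.428, 4.18 and 2.79 CPM in sole libraries, against 111, 120.1, 317, 285 and 289 CPM in upper foot libraries, and so went with the hair genes below. DSG2, DSG3, PKP2 and PNN did not pass, with DSG3, the desmoglein of the lower layers, at 1009 to 1464 CPM in sole libraries and 838 to 1125 CPM in upper foot libraries.

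Proteases and their inhibitors time the shedding of the cornified layer. Counting 26 tested members, 18 rose and 3 fell (TMPRSS11F, KLK6 and CST6), with a median of 1.57. SERPINB12, a serine protease inhibitor, had 3412, 3603, 1899, 5831 and 5991 CPM in sole libraries, against 129, 121, 189, 124 and 140.3 CPM in upper foot libraries (log2 fold change 4.34 ± 0.32, adjusted p = 2.31e-05). SERPINB7, the inhibitor mutated in a human palmoplantar keratoderma, had 1328, 1500.0, 721, 3191 and 2492 CPM in sole libraries, against 142, 139, 142, 109 and 120.2 CPM in upper foot libraries (log2 fold change 3.07 ± 0.35, adjusted p = 0.000210). SPINK9, an inhibitor of kallikrein 5 known from human palms and soles, had 288, 214, 156, 914 and 709.7 CPM in sole libraries, against 20.9, 9.82, 13.3, 23.6 and 13.8 CPM in upper foot libraries (log2 fold change 3.90 ± 0.58, adjusted p = 0.000968). None of the 3 inhibitors overlapped between the sides. TMPRSS11F, a transmembrane serine protease, went the other way, with 0.355, 0.746, 3.05, 0.523 and 0.594 CPM in sole libraries, against 50.4, 38.7, 58.2, 27.7 and 32.3 CPM in upper foot libraries (log2 fold change -5.11 ± 0.74, adjusted p = 0.000869).

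Enzymes of the barrier lipids, which fill the spaces between cornified cells, moved less as a list. Of 27 tested, 10 rose and 1 fell, with a median of 0.33, but without the 7-month pig's dorsal library only 4 rose, and with library totals alone 4 rose and 5 fell. ELOVL1, which elongates very long fatty acids, had 65.5, 94.2, 79.7, 113 and 150.1 CPM in sole libraries, against 34.7, 30.6, 33.6, 30.6 and 34.2 CPM in upper foot libraries (log2 fold change 1.27 ± 0.16, adjusted p = 0.000333). ALOX15B, a lipoxygenase of sebocytes, was the member that fell, with 0.330, 0.437, 0.233, 2.30 and 0.822 CPM in sole libraries, against 13.7, 5.29, 11.2, 8.41 and 4.47 CPM in upper foot libraries (log2 fold change -4.92 ± 0.62, adjusted p = 0.000381). Its sole and upper foot libraries did not overlap, while the flank-labelled pair came closer to the upper foot level than the volar libraries did. ABCA12, the lipid transporter of lamellar granules, did not pass and ranged over 149 to 538 CPM in sole libraries and 129 to 190.3 CPM in upper foot libraries.

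The alarmin and innate defence list had 9 tested members, of which 7 rose and 1 (LTF) fell, with a median of 1.79. Beside S100A8 and S100A12, the related S100A14 had 1241, 1204, 1002, 1019 and 794 CPM in sole libraries, against 283, 244, 271, 158 and 179 CPM in upper foot libraries (log2 fold change 2.11 ± 0.22, adjusted p = 0.000135). The peptidoglycan recognition proteins PGLYRP3 and PGLYRP4, secreted antibacterial factors, rose by 1.77 and 1.79 (adjusted p = 0.000473 and 0.000197). LTF, lactoferrin of glandular secretions and neutrophils, had 0.862, 1.11, 0.564, 1.22 and 1.05 CPM in sole libraries, against 28.0, 6.41, 44.2, 3.30 and 44.0 CPM in upper foot libraries, lower on the sole (log2 fold change -4.97 ± 1.03, adjusted p = 0.00625). LCN2, a neutrophil and keratinocyte lipocalin, did not pass and ranged over 2.28 to 4.32 CPM in sole libraries and 3.10 to 6.63 CPM in upper foot libraries. Of 24 immune cell genes tested, given further below, 5 fell and 0 rose, and their part in these values was not tested.

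**Figure D3:**
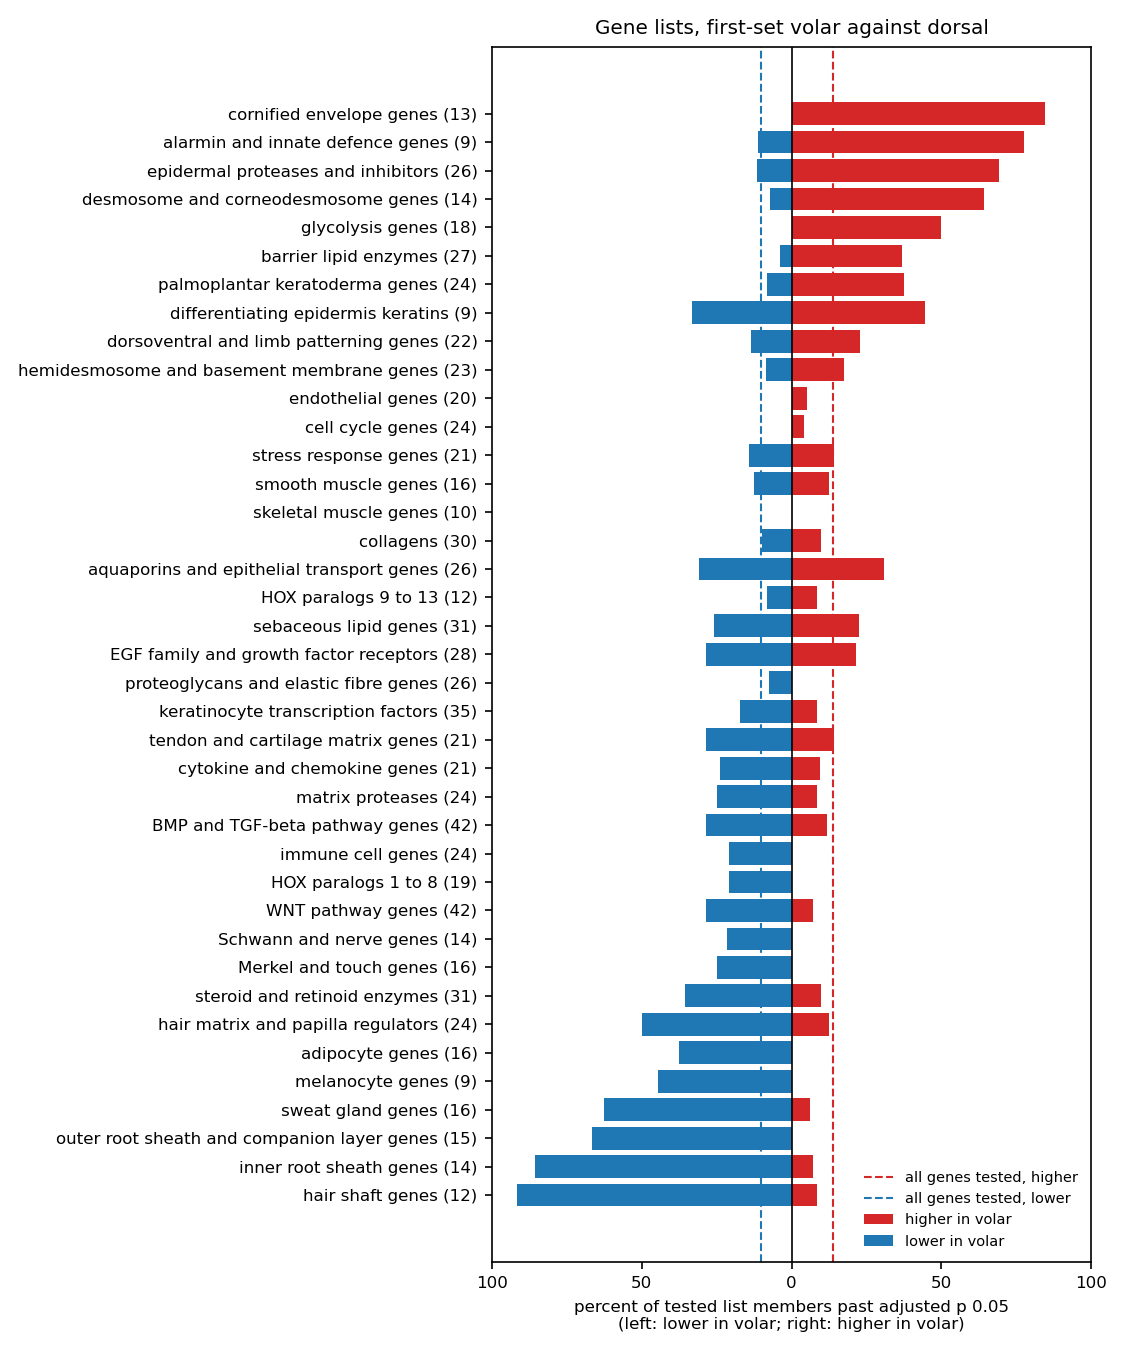
Percent of tested genes of each list that were higher (right) or lower (left) in first-set volar than dorsal libraries at an adjusted p under 0.05, with list size in brackets and dashed lines at 14.0% and 10.1%, the shares over all genes tested. Lists of cornification lie at the top and of hair at the bottom; with library totals alone, the barrier lipid, keratoderma, patterning, hemidesmosome, endothelial and cell cycle lists turned to more members lower than higher, as did the evenly split transport, HOX 9 to 13, collagen, smooth muscle and stress response lists.

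Most hair shaft and inner root sheath genes were at or near 0 on the sole. Hair shaft genes numbered 12 tested, of which 11 fell and 1 rose. Their median log2 fold change was -11.64, or -10.81 with the 3 genes that had no count in volar libraries set at their lower bound. KRT39, a shaft keratin with no count in volar libraries, had 0, 0, 0, 0 and 0 CPM in sole libraries, against 19.9, 23.9, 91.4, 68.5 and 80.3 CPM in upper foot libraries, at least 1949.8-fold lower in volar libraries (floor of 3 counts over the volar libraries together). KRT36 and KRT84, keratins of hair and of nail and tongue, departed from this pattern in 1 library. KRT36 had 3.32, 0.0514, 0, 170.0 and 1.14 CPM in sole libraries, against 22.8, 37.4, 54.3, 34.9 and 31.8 CPM in upper foot libraries, and KRT84 had 2.08, 0.129, 0.253, 80.0 and 4.29 CPM in sole libraries, against 13.9, 74.7, 2.61, 21.9 and 6.76 CPM in upper foot libraries. In the flank-labelled library of the 5-month pig both exceeded every upper foot library, whereas the other sole libraries were at 4.29 CPM or less. CRYM, a thyroid hormone-binding protein on this list, rose, with 57.2, 52.4, 64.4, 114 and 103 CPM in sole libraries, against 8.63, 7.64, 9.26, 12.9 and 11.5 CPM in upper foot libraries (log2 fold change 2.77 ± 0.28, adjusted p = 0.000104).

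In the inner root sheath list, 12 of 14 fell and 1, TGM3, rose, with a median of -9.18 and of -8.97 with 3 genes at their bound. TGM3, a transglutaminase of both hair and cornifying epidermis, had 2171, 1842, 1369.8, 3328 and 3657 CPM in sole libraries, against 309, 339.9, 490.1, 269 and 295 CPM in upper foot libraries (log2 fold change 2.24 ± 0.24, adjusted p = 0.000152). CTSL, the cathepsin that did not pass, ranged over 2.59 to 3.91 CPM in sole libraries and 7.13 to 11.7 CPM in upper foot libraries. Outer root sheath and companion layer genes fell less, 10 of 15 with a median of -1.72. LGR5, the R-spondin receptor of follicle stem cells, had 0, 0, 0, 0 and 0 CPM in sole libraries, against 20.5, 26.4, 19.0, 47.5 and 31.9 CPM in upper foot libraries, at least 951-fold lower in volar libraries. LRIG1, a growth-restraining receptor of the upper follicle, had 9.51, 6.43, 10.8, 4.36 and 3.38 CPM in sole libraries, against 60.6, 49.3, 48.8, 52.1 and 51.6 CPM in upper foot libraries, lower in each pig (log2 fold change -2.57 ± 0.30, adjusted p = 0.000232). CD200 and KRT79, marks of the bulge and of the follicle duct, fell by 2.65 and 7.31 (adjusted p = 2.62e-05 and 0.000267). LHX2, LGR6, NFATC1, FGF18 and ANGPTL7 did not pass, with the stem cell factor LHX2 at 0 to 0.428 CPM in sole libraries and 1.39 to 3.80 CPM in upper foot libraries.

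Regulators of the hair matrix and dermal papilla split, with 3 higher (TRPS1, WNT10A, DLX3) and 12 lower of 24, and a median of -1.20. GLI1, a target of Hedgehog signalling, had 1.52, 0.412, 0.681, 0 and 0.274 CPM in sole libraries, against 4.22, 4.11, 3.70, 4.67 and 5.58 CPM in upper foot libraries (log2 fold change -2.20 ± 0.41, adjusted p = 0.00304). EDAR, the ectodysplasin receptor that places hair and glands, had 1.01, 1.11, 0.428, 1.08 and 0.639 CPM in sole libraries, against 4.08, 2.94, 3.70, 1.78 and 2.72 CPM in upper foot libraries (log2 fold change -2.08 ± 0.36, adjusted p = 0.00210). CORIN, a protease of the dermal papilla, fell by 3.93 (adjusted p = 0.00725). GLI1 and EDAR were lower in every sole library than in any upper foot library. TRPS1, a GATA-type repressor mutated in a human syndrome of sparse hair, was higher, with 94.1, 105, 105, 258 and 188 CPM in sole libraries, against 22.7, 19.0, 29.0, 39.2 and 50.8 CPM in upper foot libraries (log2 fold change 2.10 ± 0.20, adjusted p = 8.56e-05). Of the 3 that rose, 1 was left without the 7-month pig's dorsal library. SHH, the ligand upstream of GLI1, was too low to test, with no count in the sole libraries and 0 to 0.143 CPM in upper foot libraries.

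Sweat gland genes were mostly lower on the sole, AQP5 excepted. In the sweat gland list 10 of 16 fell and AQP5 rose, with a median of -3.09. CA6, a secreted carbonic anhydrase, had 0.0507, 0.103, 0.136, 0.418 and 0.137 CPM in sole libraries, against 19.2, 12.9, 15.8, 30.5 and 35.8 CPM in upper foot libraries (log2 fold change -7.30 ± 0.89, adjusted p = 0.000314). FOXC1, a regulator of sweat gland and follicle cells in mice, had 0.608, 0.231, 0.778, 0.593 and 0.548 CPM in sole libraries, against 3.65, 3.86, 4.19, 5.69 and 7.08 CPM in upper foot libraries (log2 fold change -2.84 ± 0.43, adjusted p = 0.00108). FOXA1, a secretory coil factor in mice, ranged over 0 to 0.0195 CPM in sole libraries and 1.48 to 5.20 CPM in upper foot libraries. So AQP5 rose where the other secretory genes of its list fell or were not called. CHRM3, the muscarinic receptor of sweating, did not pass, at 0.127 to 0.669 CPM in sole libraries and 0.382 to 0.536 CPM in upper foot libraries, and neither did KRT8, ACTA2, SLC12A2 or BEST2.

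Transport genes moved in both directions, 8 higher and 8 lower of 26 (as few as 5 lower, without the 4-month pig's volar library). RHCG, an ammonia channel of squamous epithelia, had 564, 639, 330.3, 713 and 790.2 CPM in sole libraries, against 20.3, 14.8, 18.0, 9.97 and 14.8 CPM in upper foot libraries (log2 fold change 4.85 ± 0.30, adjusted p = 1.74e-05). AQP2, the vasopressin-controlled channel of the kidney, was barely read in upper foot libraries, with 2.18, 3.16, 2.04, 9.34 and 7.58 CPM in sole libraries, against 0.0458, 0, 0.0404, 0 and 0 CPM in upper foot libraries (log2 fold change 6.39 ± 0.79, adjusted p = 0.000338). AQP9, a channel that also passes glycerol, had 2.92, 2.49, 4.36, 2.02 and 1.32 CPM in sole libraries, against 15.2, 30.7, 21.3, 40.7 and 26.6 CPM in upper foot libraries, lower on the sole (log2 fold change -2.78 ± 0.35, adjusted p = 0.000353). AQP3, the glycerol channel of basal keratinocytes, did not pass and ranged over 862 to 1228 CPM in sole libraries and 479.6 to 874 CPM in upper foot libraries. CFTR, the chloride channel of ducts, fell by 4.71 from a low level (adjusted p = 0.000832), and the proton pump subunits ATP6V1B1 and ATP6V0A4 by 5.75 and 4.28 (adjusted p = 0.00325 and 0.0126).

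In the sebaceous lipid list 7 of 31 rose and 8 fell. Those that rose were enzymes of cholesterol synthesis (IDI1, DHCR7, HMGCS1, FDPS, LSS) and the fatty alcohol enzymes FAR1 and FAR2, and those that fell included KRT79, ALOX15B and the wax ester enzyme AWAT2. PLIN2, a coat protein of lipid droplets, had 66.0, 51.9, 52.0, 50.7 and 78.7 CPM in sole libraries, against 133, 188, 179, 172 and 199 CPM in upper foot libraries (log2 fold change -1.56 ± 0.18, adjusted p = 0.000231). AWAT2 ranged over 0 to 0.0349 CPM in sole libraries and 0.112 to 0.445 CPM in upper foot libraries (adjusted p = 0.0178). Both were lower on the sole in all pigs. IDI1 had 110.5, 126, 129, 123 and 92.7 CPM in sole libraries, against 32.2, 50.6, 58.2, 54.7 and 56.8 CPM in upper foot libraries (log2 fold change 1.37 ± 0.23, adjusted p = 0.00174). Without the 7-month pig's volar library 3 members rose, and with upper-quartile scaling 4.

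Limb patterning genes other than the markers moved as follows. Of 22 tested, 5 rose (EN1, DLX5, DLX6, TBX3, MEIS1) and 3 fell (LMX1B, MSX2, SHOX2), with a median of 0.08; with library totals alone 5 rose and 9 fell. DLX5 and DLX6, neighbouring homeobox genes of the distal limb, were higher together. DLX5 had 12.1, 14.1, 12.1, 26.9 and 22.7 CPM in sole libraries, against 3.64, 2.42, 2.20, 3.15 and 2.84 CPM in upper foot libraries (log2 fold change 2.21 ± 0.34, adjusted p = 0.00108). DLX6 had 3.17, 4.63, 2.76, 8.65 and 9.77 CPM in sole libraries, against 0.642, 0.407, 0.769, 0.398 and 0.402 CPM in upper foot libraries (log2 fold change 2.54 ± 0.34, adjusted p = 0.000529). MEIS1, a proximal limb homeobox gene, had 34.6, 22.1, 30.2, 51.6 and 44.8 CPM in sole libraries, against 9.94, 9.89, 9.44, 12.1 and 8.75 CPM in upper foot libraries (log2 fold change 1.57 ± 0.25, adjusted p = 0.00133). Each of the 3 was higher in the sole library of every pig. Among those that did not pass, SP8, a factor of the limb ridge, ranged over 4.77 to 11.0 CPM in sole libraries and 1.86 to 2.63 CPM in upper foot libraries, and FGF10, its mesenchymal signal, over 0.0457 to 2.56 CPM in sole libraries and 2.94 to 4.93 CPM in upper foot libraries.

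HOX genes, which keep positional identity in adult skin fibroblasts, passed the test in few cases. Paralogs 9 to 13 numbered 12 tested with 1 higher, HOXC11, and 1 lower, HOXC13, the paralog that drives hair keratins. HOXC13 had 3.63, 1.57, 1.61, 4.57 and 3.61 CPM in sole libraries, against 8.05, 7.05, 14.1, 11.7 and 17.1 CPM in upper foot libraries (log2 fold change -2.10 ± 0.55, adjusted p = 0.0178). HOXC11 had 5.86, 3.11, 4.10, 3.63 and 5.34 CPM in sole libraries, against 2.02, 2.05, 1.68, 1.51 and 1.41 CPM in upper foot libraries (log2 fold change 1.18 ± 0.31, adjusted p = 0.0247). Neither overlapped between the sides, but HOXC11 lost its call when any of 5 single libraries was left out and HOXC13 when any of 3 was. In paralogs 1 to 8, 4 of 19 fell, of which HOXA2 had 0, 0.0257, 0.0195, 0.0349 and 0 CPM in sole libraries, against 0.458, 0.184, 0.243, 0.510 and 0.714 CPM in upper foot libraries (log2 fold change -4.09 ± 0.80, adjusted p = 0.00432).

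Several positional genes differed between pigs on both sides of the foot. HOXA9 had 34.2, 24.0, 1.89, 24.3 and 1.28 CPM in sole libraries, against 29.6, 24.1, 3.26, 23.6 and 5.18 CPM in upper foot libraries. TBX4, the hindlimb transcription factor, had 4.23, 2.55, 1.83, 3.42 and 1.78 CPM in sole libraries, against 3.79, 2.85, 0.971, 4.20 and 1.27 CPM in upper foot libraries. HOXA7 had 6.31, 3.45, 1.26, 3.80 and 0.228 CPM in sole libraries, against 7.27, 6.95, 1.66, 7.06 and 2.57 CPM in upper foot libraries. On both sides of the foot all 3 were lower in the 8- and 6-month pigs than in the other 3 pigs. TBX5, the forelimb factor, had 3.37, 1.72, 5.35, 0.697 and 2.51 CPM in sole libraries, against 4.66, 5.24, 6.80, 5.08 and 8.24 CPM in upper foot libraries, highest on both sides in these 2 pigs within their sets. HOXA7 and TBX5 were also lower in the sole library than in the upper foot library of each pig. None of the 4 passed the first-set test between the sides, and the labels name no limb. The haemoglobin gene HBB also went by pig, with 197, 2.34, 2.22, 118 and 1.28 CPM in sole libraries, against 46.7, 1.79, 2.65, 15.2 and 1.63 CPM in upper foot libraries, high on both sides in the 4- and 5-month pigs and low in the other 3.

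**Figure D4:**
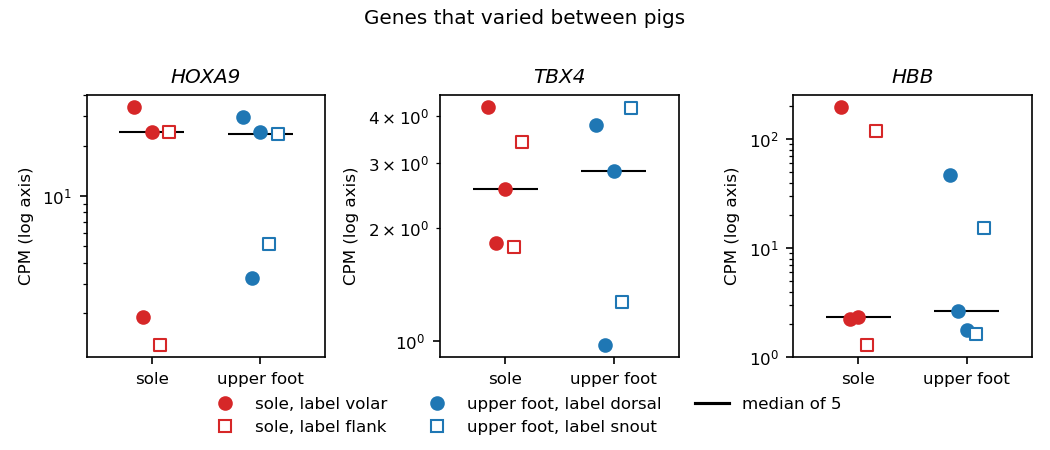
HOXA9, TBX4 and HBB in CPM on log axes, sole libraries to the left of upper foot libraries, points in the order of the pigs aged 4, 8 and 7 months (circles) and 6 and 5 months (open squares), with a line at the median of 5. The same pigs were low on both sides of the foot, and the sides overlapped for each gene.

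WNT signalling directs follicle growth and the patterning of skin. Of 42 genes tested, 3 rose (WNT5A, DKK3, KREMEN1) and 12 fell, with a median of -0.45. Among ligands, WNT16 had 3.35, 4.50, 3.00, 2.13 and 1.32 CPM in sole libraries, against 42.6, 41.6, 29.5, 19.1 and 27.7 CPM in upper foot libraries (log2 fold change -3.39 ± 0.26, adjusted p = 2.31e-05). Among receptors, FZD3 had 3.78, 2.83, 1.63, 3.21 and 2.42 CPM in sole libraries, against 14.9, 19.9, 23.0, 23.9 and 23.3 CPM in upper foot libraries (log2 fold change -2.82 ± 0.31, adjusted p = 0.000197) and FZD7 fell by 1.62 (adjusted p = 0.00198). Some secreted inhibitors fell as well. SOSTDC1, an inhibitor of WNT and BMP signals, had 4.77, 2.34, 6.01, 1.60 and 1.69 CPM in sole libraries, against 28.9, 27.8, 30.3, 31.3 and 46.5 CPM in upper foot libraries (log2 fold change -2.73 ± 0.43, adjusted p = 0.00120), and SFRP1 fell by 1.18 (adjusted p = 0.000982). AXIN2, a general target of the pathway, did not pass, at 12.2 to 21.9 CPM in sole libraries and 15.1 to 18.9 CPM in upper foot libraries, and neither did DKK1, an inhibitor high in human palms and soles, at 0.101 to 0.566 CPM in sole libraries and 0.321 to 0.709 CPM in upper foot libraries.

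BMP and TGF-beta genes had 5 members higher and 12 lower of 42, with a median of -0.20. The ligand BMP3 had 0.862, 1.47, 1.83, 0.697 and 0.183 CPM in sole libraries, against 8.66, 7.54, 7.50, 7.60 and 8.97 CPM in upper foot libraries (log2 fold change -2.50 ± 0.30, adjusted p = 0.000292). FST, follistatin, which binds activins, had 1.65, 0.926, 2.41, 0.593 and 0.548 CPM in sole libraries, against 15.7, 12.6, 7.91, 16.5 and 14.3 CPM in upper foot libraries (log2 fold change -2.86 ± 0.41, adjusted p = 0.000786). The receptors ACVR1 and TGFBR1 rose by 1.01 and 0.89 (adjusted p = 0.000232 and 0.000867). Ligand, antagonist and the latent binding protein LTBP2 (log2 fold change -1.55, adjusted p = 0.000399) were thus lower and the 2 receptors higher. The general targets ID1, ID2 and ID3 did not pass.

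In the list of EGF ligands and growth factor receptors 6 of 28 rose and 8 fell (as few as 5, without the 4-month pig's dorsal library). EREG, epiregulin, a ligand of the EGF receptor, had 393, 752, 699, 824 and 1556 CPM in sole libraries, against 22.5, 30.3, 36.0, 20.9 and 41.3 CPM in upper foot libraries (log2 fold change 4.37 ± 0.48, adjusted p = 0.000186). BTC, betacellulin, another ligand of that receptor, had 0.406, 0.772, 0.447, 0.244 and 0.868 CPM in sole libraries, against 9.71, 7.36, 15.7, 6.39 and 11.1 CPM in upper foot libraries (log2 fold change -4.34 ± 0.74, adjusted p = 0.00197). These 2 ligands were opposite in every pig. EPHA8, an ephrin receptor, had 6.97, 8.13, 6.38, 5.51 and 4.57 CPM in sole libraries, against 0.458, 0.447, 0.465, 0.223 and 0.134 CPM in upper foot libraries (log2 fold change 3.96 ± 0.36, adjusted p = 6.48e-05). EGFR itself did not pass and ranged over 180.3 to 249 CPM in sole libraries and 167 to 245 CPM in upper foot libraries.

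Tendon and cartilage matrix genes had 3 higher (THBS4, COMP, CILP2) and 6 lower of 21, with a median of -0.43. COMP, a pentameric glycoprotein of cartilage and tendon, had 265, 58.5, 30.5, 89.8 and 3.29 CPM in sole libraries, against 2.35, 2.01, 4.25, 1.16 and 3.57 CPM in upper foot libraries (log2 fold change 5.37 ± 0.76, adjusted p = 0.000779). It was above the upper foot in each pig's first-set sole library, but the flank-labelled library of the 6-month pig fell within the upper foot range. MATN4, matrilin 4, had 0.177, 0.103, 0.875, 0.0349 and 0.0457 CPM in sole libraries, against 6.77, 12.7, 12.2, 12.9 and 9.49 CPM in upper foot libraries (log2 fold change -4.70 ± 0.68, adjusted p = 0.000815), and COL11A1, a fibril collagen of cartilage and papilla, fell by 4.38 (adjusted p = 0.00123). The tendon factor SCX did not pass, at 0.129 to 0.887 CPM in sole libraries and 0.0956 to 0.303 CPM in upper foot libraries.

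Of 30 collagens tested, 3 rose (COL17A1, COL18A1, COL21A1) and 3 fell (COL6A6, COL25A1, COL8A2), which became 5 and 8 with the pig as a block and 0 and 14 with library totals alone. COL1A1, the main collagen of dermis, did not pass, with 4736, 2104, 2555, 997 and 734 CPM in sole libraries, against 11489.5, 6371, 3049, 10733 and 5109 CPM in upper foot libraries. The summed level of the collagens was 11144 to 46760.4 CPM in sole libraries and 33225 to 89907 CPM in upper foot libraries, lowest in the flank-labelled pair. COL6A6, a collagen VI chain, had 0.811, 0.875, 3.19, 0.174 and 0 CPM in sole libraries, against 118, 72.7, 43.4, 238 and 102 CPM in upper foot libraries (log2 fold change -5.56 ± 0.86, adjusted p = 0.00126). Among proteoglycan and elastic fibre genes, OMD and DCN fell of 26, with a median of -0.38 in the first set and -1.80 in the regrouped pigs; 6 fell with the pig as a block. The list summed to 1368 to 3744 CPM in sole libraries and 4246 to 7411 CPM in upper foot libraries, without overlap. OMD, osteomodulin, had 28.4, 11.6, 53.1, 13.6 and 6.67 CPM in sole libraries, against 148, 121, 143, 261 and 200.4 CPM in upper foot libraries (log2 fold change -2.15 ± 0.41, adjusted p = 0.00404).

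Matrix proteases numbered 24 tested, with 2 higher and 6 lower (2 lower without the 7-month pig's volar library). MMP13, a collagenase, had 9.35, 6.51, 11.4, 11.4 and 1.60 CPM in sole libraries, against 0.168, 0.355, 0.324, 0.239 and 0.246 CPM in upper foot libraries (log2 fold change 5.00 ± 0.45, adjusted p = 6.52e-05). ADAMTS5, which cleaves proteoglycans, had 12.0, 7.36, 16.2, 3.80 and 7.86 CPM in sole libraries, against 58.7, 42.8, 48.3, 46.9 and 58.8 CPM in upper foot libraries (log2 fold change -2.07 ± 0.35, adjusted p = 0.00191). Both kept the sides apart in all 10 libraries. At the dermal-epidermal junction, 4 of 23 genes rose (ITGA6, ITGB4, ITGA3, COL17A1) and 2 fell (FREM1, FREM2). With library totals alone 1 rose and 13 fell, and 2 rose without the 7-month pig's dorsal library. ITGB4, the integrin chain of the hemidesmosome, had 276, 244, 346, 231 and 242 CPM in sole libraries, against 152, 124, 108, 82.8 and 89.1 CPM in upper foot libraries (log2 fold change 1.17 ± 0.20, adjusted p = 0.00180). FREM2, an anchoring matrix protein, had 6.77, 3.24, 7.39, 2.75 and 4.34 CPM in sole libraries, against 32.0, 27.5, 33.2, 31.3 and 23.8 CPM in upper foot libraries (log2 fold change -2.41 ± 0.31, adjusted p = 0.000444). LAMA3 and LAMB3, laminin chains of the junction, did not pass.

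Markers of other cell types in the biopsies moved too, and their part in the results above was not tested. Adipocyte genes summed to 206 to 457 CPM in sole libraries and 824 to 1132 CPM in upper foot libraries, without overlap, and 6 of 16 fell (1 without the 7-month pig's volar library). ADIPOQ, adiponectin, had 3.40, 2.57, 15.7, 3.00 and 2.56 CPM in sole libraries, against 217, 258, 290.2, 279 and 347 CPM in upper foot libraries, and LPL, lipoprotein lipase, had 11.1, 6.74, 17.0, 3.21 and 7.17 CPM in sole libraries, against 163, 114, 140.0, 134 and 107 CPM in upper foot libraries. LPL kept its call without any 1 library (log2 fold change -3.58 ± 0.75, adjusted p = 0.00679), and ADIPOQ lost it without either of 2 (log2 fold change -5.14 ± 1.32, adjusted p = 0.0177). Melanocyte genes summed to 111 to 162 CPM in sole libraries and 222 to 273 CPM in upper foot libraries, and 4 of 9 fell. MITF, their master factor, had 24.5, 22.6, 22.1, 48.0 and 47.5 CPM in sole libraries, against 57.6, 55.8, 68.9, 69.1 and 79.3 CPM in upper foot libraries (log2 fold change -1.40 ± 0.14, adjusted p = 0.000101), and DCT, a melanin enzyme, fell by 2.33 (adjusted p = 0.00275). The pigment genes TYR, TYRP1 and PMEL did not pass or were too low to test.

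Merkel and touch genes had 4 of 16 lower and summed to 129 to 193 CPM in sole libraries and 126 to 153 CPM in upper foot libraries, overlapping. TRPV4, a heat- and stretch-sensitive channel, had 4.21, 2.42, 4.59, 3.21 and 3.97 CPM in sole libraries, against 12.2, 10.9, 9.53, 9.65 and 9.49 CPM in upper foot libraries (log2 fold change -1.54 ± 0.31, adjusted p = 0.00489), while PIEZO2, the touch channel of Merkel cells, lost its call without any 1 of 4 libraries, at 3.06 to 6.97 CPM in sole libraries and 8.38 to 18.5 CPM in upper foot libraries. Schwann and nerve genes overlapped in sum, at 350.2 to 627 CPM in sole libraries and 406 to 490.3 CPM in upper foot libraries, with 3 of 14 lower, each lost when some single library was left out. Skeletal muscle genes were low, 9.09 to 22.6 CPM in sole libraries and 20.3 to 46.7 CPM in upper foot libraries in sum, and 0 of 10 passed in edgeR in either direction (1 had an unadjusted p under 0.05, and DESeq2 and limma-voom called 0). Smooth muscle genes summed to 1001 to 1341 CPM in sole libraries and 1282 to 1770.0 CPM in upper foot libraries, and of 16 genes tested 2 rose, among them SMTN, and NPNT and TAGLN fell. With the pig as a block 5 of them fell, and with library totals alone 1 rose and 11 fell. Endothelial genes overlapped, at 537 to 929 CPM in sole libraries and 619.5 to 784 CPM in upper foot libraries in sum, and 1 of 20, the lymphatic chemokine CCL21, rose, against 0 higher and 8 lower with library totals alone. Its call was lost without any 1 of 5 libraries.

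Immune cell genes summed to 129 to 336 CPM in sole libraries and 372 to 470.0 CPM in upper foot libraries, without overlap, and 5 of 24 fell (2 without the 8-month pig's dorsal library). CD79B, a B-cell receptor chain, had 0.0254, 0.0772, 0.0389, 0.0349 and 0 CPM in sole libraries, against 0.672, 0.460, 1.05, 0.414 and 0.290 CPM in upper foot libraries, without overlap (log2 fold change -3.90 ± 0.56, adjusted p = 0.000777). MS4A2, of mast cells, fell by 1.55 (adjusted p = 0.00887), whereas the general leukocyte gene PTPRC did not pass, at 10.1 to 28.2 CPM in sole libraries and 26.2 to 40.1 CPM in upper foot libraries. Cytokine genes had 2 higher (IL4R, IL7) and 5 lower of 21 (1 lower without the 8-month pig's dorsal library). IL34, a survival signal for Langerhans cells, had 4.54, 1.88, 3.87, 2.61 and 1.46 CPM in sole libraries, against 11.9, 14.7, 16.0, 20.7 and 15.1 CPM in upper foot libraries (log2 fold change -2.05 ± 0.31, adjusted p = 0.00103). IL6 and CXCL8, general signals of inflammation, did not pass.

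Glycolysis enzymes that passed were higher on the sole, 9 of 18 with a median of 0.77. PKM, pyruvate kinase, had 926, 868, 801, 1075 and 1045 CPM in sole libraries, against 376, 378, 376, 470.0 and 457 CPM in upper foot libraries (log2 fold change 1.20 ± 0.12, adjusted p = 9.01e-05). LDHA, lactate dehydrogenase, had 626, 478, 433, 538 and 413 CPM in sole libraries, against 246, 179, 209, 207 and 214 CPM in upper foot libraries (log2 fold change 1.28 ± 0.21, adjusted p = 0.00160). HK1, hexokinase, rose by 1.31 (adjusted p = 0.000252). With library totals alone 5 of the list rose and 1 fell. Of the cell cycle genes, 1 of 24, MCM5, rose, and its call was lost without any 1 of 4 libraries, while with library totals alone 0 rose and 4 fell. The proliferation gene TOP2A had 95.4, 47.0, 61.5, 57.7 and 24.3 CPM in sole libraries, against 62.5, 51.9, 85.2, 92.2 and 95.5 CPM in upper foot libraries, with the sides overlapping. Stress response genes had 3 higher and 3 lower of 21 (5 and 4 with the pig as a block, 0 and 6 with library totals alone), and FOS and JUN, early genes that respond to handling of tissue, did not pass, at 6.12 to 85.0 CPM in sole libraries and 8.97 to 102 CPM in upper foot libraries for FOS and 88.5 to 145 CPM in sole libraries and 66.1 to 134 CPM in upper foot libraries for JUN.

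Steroid and retinoid genes were lower more often than higher, 11 against 3 of 31, with a median of -0.77. HSD11B1, which activates glucocorticoids, had 6.21, 3.47, 6.60, 0 and 2.97 CPM in sole libraries, against 41.3, 17.7, 27.2, 21.4 and 28.2 CPM in upper foot libraries (log2 fold change -2.40 ± 0.36, adjusted p = 0.000920). ALDH1A3, which makes retinoic acid, had 4.16, 4.55, 4.96, 3.10 and 3.88 CPM in sole libraries, against 26.4, 36.7, 36.7, 30.6 and 32.9 CPM in upper foot libraries (log2 fold change -2.87 ± 0.45, adjusted p = 0.00126). RARB, a retinoic acid receptor, had 13.3, 16.0, 18.2, 9.80 and 10.9 CPM in sole libraries, against 1.97, 5.14, 4.95, 7.25 and 6.65 CPM in upper foot libraries, higher on the sole (log2 fold change 1.97 ± 0.34, adjusted p = 0.00221). The enzyme and the receptor therefore moved in opposite directions in the first set.

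Among transcription factors of keratinocytes 3 of 35 rose (ZBED2, PRDM1, TFAP2C) and 6 fell, with a median of 0.16; with library totals alone 2 rose and 14 fell. PRDM1, a repressor needed for cornification in mice, had 750.1, 811, 469, 968 and 985 CPM in sole libraries, against 109, 83.9, 129.9, 85.6 and 120.4 CPM in upper foot libraries (log2 fold change 2.65 ± 0.28, adjusted p = 0.000135). POU2F3, a POU factor of suprabasal cells, had 1.47, 2.62, 2.65, 3.10 and 4.29 CPM in sole libraries, against 48.0, 42.8, 33.2, 39.4 and 39.0 CPM in upper foot libraries (log2 fold change -4.20 ± 0.31, adjusted p = 2.31e-05). POU3F1, of the same family, fell by 4.70 and the ETS factor EHF by 2.42 (adjusted p = 0.000527 and 0.000577). General regulators such as TP63, KLF4 and GRHL3 did not pass, with TP63, the factor that maintains stratified epithelia, at 287 to 425 CPM in sole libraries and 292 to 336 CPM in upper foot libraries.

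Genes mutated in human palmoplantar keratodermas, disorders of thickened palms and soles, had 9 of 24 higher and 2 lower, with a median of 0.20; with library totals alone 7 rose and 9 fell, and with the pig as a block 4 fell. Most of those that rose (KRT1, AQP5, SERPINB7, DSG1, DSP, JUP, PERP) belong to lists given above. AAGAB, a trafficking protein, rose by 0.70 (adjusted p = 0.00297). TRPV3, CTSC, RHBDF2 and CARD14 did not pass.

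Beyond the lists, the regrouped libraries followed the first set for most called genes, which the way they were chosen makes likely. Of the 2142 genes that rose in the first set, 2063 (96.3%) were higher in the sole library of both second-set pigs, and 18 were lower in both. Of the 1553 that fell, 1500 (96.6%) were lower in both and 10 higher in both. Over the 10 libraries, 14709 genes could be compared, and the sole libraries lay wholly above the upper foot libraries for 2578 genes (17.5%) and wholly below for 2371 (16.1%).

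Genes for which the sets departed from each other were ranked by edgeR's comparison of the contrasts, volar minus dorsal in the first set minus flank minus snout in the second, over all 20 libraries. Because the second-set libraries were paired with the first by their expression, this ranking is a description, and its p-values are not independent of that choice. Of 15735 genes, 45 (0.286%) were higher and 33 (0.210%) lower at an adjusted p under 0.05, and this count was unsteady: limma-voom gave 0, DESeq2 889, and leaving out 1 library 5 to 643, the highest without the 7-month pig's volar library. The first 10 genes in the ranking were CADM3, PAPPA2, CHRDL1, IL16, CPQ, TNK2, CILP, ZNF182, VCAN and FBLN1. Their levels follow with no test.

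CHRDL1, a secreted BMP antagonist, had 31.6, 13.4, 58.3, 0.802 and 0.320 CPM in sole libraries, against 126, 146, 183, 275 and 232 CPM in upper foot libraries. The flank-labelled pair was near 0 where the volar libraries were not. CILP, a matrix protein of cartilage and dermis, had 267, 62.3, 214, 10.6 and 8.54 CPM in sole libraries, against 226, 96.3, 154, 175 and 181 CPM in upper foot libraries. VCAN, versican, a large proteoglycan, had 238, 186, 235, 79.0 and 51.4 CPM in sole libraries, against 233, 283, 225, 471 and 394 CPM in upper foot libraries. FBLN1, fibulin 1 of elastic fibres, had 112, 57.7, 79.8, 10.9 and 2.19 CPM in sole libraries, against 100.3, 110.5, 110.4, 125 and 119 CPM in upper foot libraries. For these 3, volar and dorsal libraries overlapped in the first set, and the flank-labelled sole libraries lay below the other 8.

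CADM3, a cell adhesion molecule of nerve, had 51.0, 18.1, 37.9, 3.83 and 1.69 CPM in sole libraries, against 44.1, 27.6, 23.9, 41.9 and 49.5 CPM in upper foot libraries. Its volar and dorsal libraries overlapped, and the flank-labelled pair was lowest. PAPPA2, a protease that cleaves IGF-binding proteins, had 7.73, 2.91, 5.08, 0.244 and 0.183 CPM in sole libraries, against 9.70, 9.79, 9.10, 14.4 and 13.4 CPM in upper foot libraries. It was lower in every sole library than in any upper foot library, and lowest in the flank-labelled pair. TNK2, a non-receptor tyrosine kinase, had 73.1, 64.9, 45.3, 150.4 and 172 CPM in sole libraries, against 45.1, 43.8, 36.3, 37.6 and 36.3 CPM in upper foot libraries, highest in the flank-labelled pair. In the same 2 libraries the summed collagens were 12875 and 11144 CPM, against 18581 to 46760.4 CPM in the volar libraries, and KRT1 took 21.9% and 26.7% of all counts, against 14.6% to 17.9%. The part of these shares in the differences between sets was not tested.

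**Figure D5:**
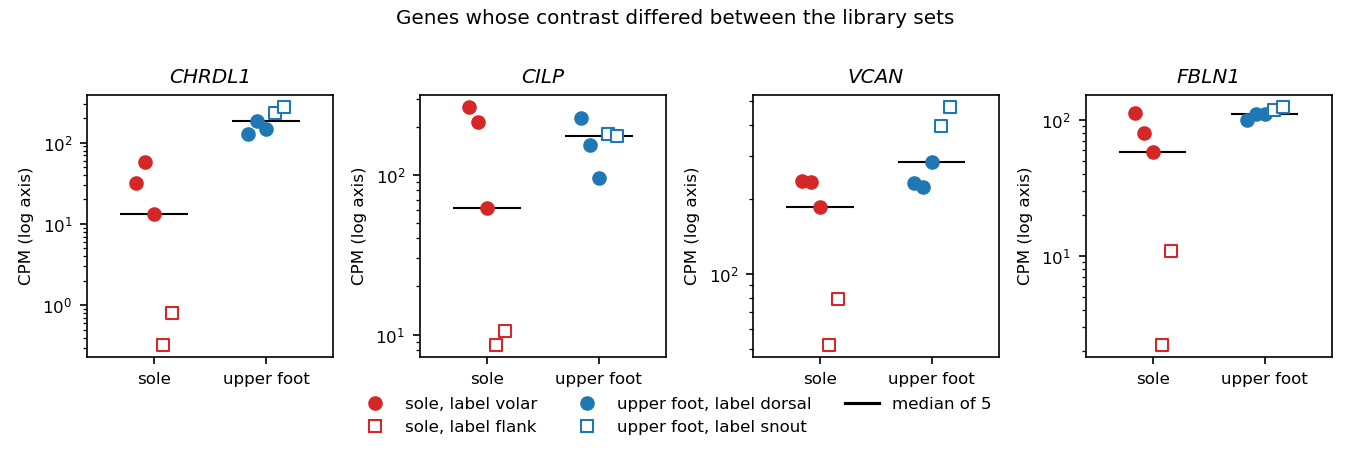
CHRDL1, CILP, VCAN and FBLN1 in CPM on log axes, sole libraries to the left of upper foot libraries, circles for the first set, open squares for the regrouped second-set libraries, and a line at the median of 5. The flank-labelled sole libraries lie below the volar libraries and below every upper foot library for all 4 genes.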

How the data were processed

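Skin biopsies of 4 sites of 5 pigs gave 20 libraries. The authors estimated counts for each Ensembl gene with Salmon, per the submitters' processing notes. The version of Salmon and the build are not given in the sources, and no coordinates are printed. The deposited expected counts (42.2% of values not whole, tolerance 0.000000001) were rounded to whole numbers. Of 19280 identifiers, 14821 matched a symbol and 1511 had no count. Genes were filtered with filterByExpr (minimum count 10, minimum total 15) and tested with edgeR 4.0.16 in R 4.3.3 (TMM, robust quasi-likelihood test, Benjamini-Hochberg over all genes tested, threshold 0.05) on site means of the 12 first-set libraries. DESeq2 1.42.0 and limma 3.58.1 (voom) were alternatives, as were other scalings, filters and single libraries left out. CPM were scaled by TMM over all 20 libraries, and fold changes are volar over dorsal on the log2 scale; second-set differences are of log2(CPM + 0.5) within a pig. TMM factors ran from 0.57 to 0.812 in sole libraries and from 1.17 to 1.29 in upper foot libraries.

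Libraries of 1 pig share an animal. A pig's sole and upper foot deviations from the label means correlated at 0.258, 0.167 and 0.256 (pigs aged 4, 7 and 8 months). In the second set the value was 0.248. It is the same for both pigs by construction, because the deviations of 2 libraries from their mean mirror each other. Pig was left out of the main model. Unless another setting is named, calls and genes that did not pass therefore come from a fit that does not pair the libraries of a pig. Pig was added as a block in an alternative, which gave 2545 genes higher and 2009 lower in the first set. On simulated first-set counts of 15302 genes, edgeR recovered 32 of 100 genes changed 2-fold and 75 of 100 changed 4-fold with 3 false calls. For the difference between sets, over 15735 genes, it recovered 7 and 59 of 100 with 6 false calls. All simulated libraries shared the same mean profile apart from the changed genes. These counts therefore do not cover errors from scaling between unlike libraries or from choosing libraries by expression. The second-set libraries were paired with the first by expression, so the difference between sets was used only to rank genes.

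The 10 libraries, the markers and all 42 gene lists were chosen with earlier results of these data known, so counts within lists are descriptions, with the shares over all genes given once for all lists. Named genes were the 10 higher and 10 lower genes with the largest smaller-of-2 set mean differences (first-set adjusted p under 0.05, same direction in 5 pigs, at least 5 CPM), the members of each list with the smallest adjusted p, members that did not pass, and the 10 genes with the smallest adjusted p for the difference between sets. KRT36, KRT84, FOXA1, AWAT2, ADIPOQ, DSG4, AAGAB, ATP6V1B1, ATP6V0A4, CYP24A1 and the pig-dependent genes were named after their values were seen. Reads of near-identical keratin, keratin-associated and S100 genes may be split between copies by the estimation, so their single levels are uncertain. Some members of the lists are not reported here.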

Additional observations from a re-analysis of the deposited data

Results flagged for a closer look

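Within the 5 libraries of a side, 46 groups of values of named genes were looked at, and in 3 a library lay far from the other 4. The cut-off flags about 1 in 20 groups of normally distributed values. Groups at or near 0 are not such values, so the 3 flags cannot be set against chance. KRT71 was at 21.0 CPM in the sole library of the 5-month pig, labelled flank, and at 0.0254 to 0.154 CPM in the other 4 sole libraries. KRT85 was at 0.283 CPM in the sole library of the 7-month pig, against 0 to 0.0254 CPM in the others. CPHL1 was at 0.0389 CPM in the sole library of the 8-month pig and at 0 in the others. The KRT85 and CPHL1 values rest on a few reads.

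The 10 genes ranked first by edgeR's comparison of the first set's volar minus dorsal contrast with the second set's flank minus snout contrast are given as a description, because the second-set libraries were paired with the first by expression. On the log2 scale the differences were 4.19 for CADM3, 5.13 for PAPPA2, 6.63 for CHRDL1, 1.88 for IL16, 1.83 for CPQ, -1.58 for TNK2, 4.41 for CILP, 2.64 for ZNF182, 2.56 for VCAN and 3.84 for FBLN1. In limma-voom none of the 10 had an adjusted p under 0.05 (0.0635 to 0.155), and in edgeR ZNF182 lost its call without any 1 of 8 of the 10 libraries of the contrast, CILP and VCAN without any 1 of 7, FBLN1 of 6, CPQ of 5, IL16 and TNK2 of 3, and PAPPA2 and CHRDL1 without 1, while CADM3 kept it.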

How the results depend on the processing

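In the first set, 2142 genes rose and 1553 fell, 3695 in all. With library totals alone these became 571, 8155 and 8726, and against a log2 fold change of at least 1 they became 256, 387 and 643. Leaving out 1 library gave 1375 to 2229 higher, 985 to 1855 lower and 2360 to 4051 in all. The other scalings, filters and tools stayed within 1.5 times of each count, among them the pig as a replicate block (2545 higher, 2009 lower), which is the fit the shared animals call for. The block also left the call of every gene named for size or as a marker in place.

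The difference between sets, a ranking on libraries paired by expression, was the least stable count, at 45 higher, 33 lower and 78 in all. The pig as a replicate block gave 135, 117 and 252, DESeq2 377, 512 and 889, limma-voom 0, 0 and 0, library totals alone 1553, 18 and 1571, and a log2 fold change of at least 1 gave 5, 0 and 5. Lower calls were 56 with median-of-ratios scaling and 20 with upper-quartile scaling. Leaving out 1 library gave 5 to 416 higher, 0 to 227 lower and 5 to 643 in all. The cause was not tested.

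Genes whose 10 libraries did not overlap numbered 2578 higher and 2371 lower, against 478 and 8169 with library totals alone, and 2666 to 2937 and 2470 to 2924 with 1 library left out, which leaves fewer libraries to overlap. Only 3 first-set and 2 second-set pigs were measured, and genes of few counts on the sole carry wide errors in their fold changes.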

Other observations

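DCN, decorin, had 964, 496, 1069, 380.4 and 387 CPM in sole libraries, against 1798, 1851, 1688, 3174 and 2519 CPM in upper foot libraries. COL3A1, a fibril collagen of skin, had 21132, 6716, 10456, 4426 and 3228 CPM in sole libraries, against 37658, 20945, 14971, 38105 and 25255 CPM in upper foot libraries. For both, the flank-labelled pair lay below all 3 volar libraries. CYP24A1, the enzyme that inactivates vitamin D, had 42.0, 39.1, 3.11, 143 and 32.7 CPM in sole libraries, against 3.88, 2.10, 2.20, 2.20 and 3.55 CPM in upper foot libraries. Sole libraries differed among themselves for CYP24A1, with the 8-month pig lowest and the 5-month pig highest (log2 fold change 3.36 ± 0.85, adjusted p = 0.0163).

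Of the left-out second-set libraries, the 2 labelled volar carried markers that went against their label. LMX1B was at 13.6 to 16.2 CPM in the 2 libraries labelled volar, beside 18.1 to 21.8 CPM in first-set libraries labelled snout and 1.09 to 1.67 CPM in those labelled volar. EN1 was at 0.542 to 0.744 CPM in these 2 volar-labelled libraries, beside 9.16 to 14.8 CPM in the first-set volar libraries. KRT1 was at 4231 to 5082 CPM in them, against 182079 to 219958 CPM in the first-set volar libraries. In the other 2, labelled dorsal, LMX1B was at 3.85 to 4.24 CPM and KRT71 at 2384 to 7564 CPM, beside 3.84 to 4.38 CPM and 2005 to 4946 CPM in the first-set dorsal libraries. EN1 was at 1.38 to 3.36 CPM in them, above the 0.728 to 1.05 CPM of the first-set dorsal libraries, and KRT1 at 6557 to 7894 CPM, below their 12344 to 15542 CPM. First-set flank libraries had 1.27 to 2.96 CPM of LMX1B and 193 to 2426 CPM of KRT71. Their EN1 was at 0.347 to 1.63 CPM and their KRT1 at 6868 to 12364 CPM. No correlation with the first-set sites was computed for the left-out second-set libraries.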
